A study of Mus musculus with 9 samples.

Results

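The 37 genes of the mouse mitochondrial genome were followed through osteoblast differentiation. They were taken as every gene whose symbol starts with mt- among the 40548 genes of the expression tables, and they comprised 13 protein-coding genes, 2 ribosomal RNA (rRNA) genes and 22 transfer RNA (tRNA) genes. The cells were primary calvarial cells, the bone-forming progenitors of the skull, from pups that the sample records give as C57BL/6 of postnatal day 2 to 3, whereas the study's methods name C57BL/6J and a wider range of ages. The groups were cells without differentiation (day 0), and cells kept for 4 or 7 days in mineralization medium (day 4 and day 7). Each stage had 3 biological replicates, and no group carried a transgene, deletion or drug according to the sample records. RNA was total RNA depleted with Ribo-Zero Gold, a kit directed against cytoplasmic and mitochondrial rRNA, so the rRNA values describe what the depletion left behind.

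The mitochondrial genome is a small circle of DNA present in many copies per cell. It encodes core subunits of the respiratory chain and ATP synthase, together with the rRNAs and tRNAs of the mitochondrial ribosome's own translation system. Both strands are transcribed as long precursors by the polymerase Polrmt with the factors Tfam and Tfb2m, and the tRNAs that lie between the other genes are cut out to release the mRNAs and rRNAs. Mitochondrial genes have no introns, so each position given here is exonic. Every other protein of the respiratory chain is encoded in the nucleus, imported and assembled with the mitochondrially encoded subunits.

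The libraries held 7741204 to 14013219 reads on genes at day 0, 32820610 to 37306090 at day 4 and 10675858 to 15622755 at day 7. CPM is the number of reads on a gene after every library has been scaled to the same total of reads on genes, and RPKM is the same value per kilobase of gene. Markers of osteoblasts, 8 genes such as Bglap and Ibsp, summed to 11692 to 16400 CPM at day 0 and to 39437 to 49931 CPM at day 7. Markers of 6 macrophage genes rose from between 59.3 and 103 CPM to between 113 and 149 CPM, and all 5 adipocyte markers stayed at or under 3 reads in every library. Markers of 5 osteoclast genes summed to 152 to 200 CPM at day 0, 352 to 362 CPM at day 4 and 347 to 363 CPM at day 7. Of these 5, 3 were tested in limma, and 2 were higher and 1 lower at day 7. Markers of 4 chondrocyte genes summed to 916 to 2693 CPM at day 0, 293 to 968 CPM at day 4 and 255 to 739 CPM at day 7, with Col2a1 and Col9a1 lower and Acan higher at day 7 in limma. The part of these cell types in the changes of the mitochondrial genes was not tested. Day 4 values lie in a table of their own, so day 4 was compared with the other stages by direction and size and entered no test.

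Of the 37 genes, 12 were listed at 0 reads in all 9 libraries. These were 5 protein-coding genes (mt-Co2, mt-Co3, mt-Atp6, mt-Atp8 and mt-Nd4l) and 7 tRNA genes (mt-Tw, mt-Ty, mt-Ts1, mt-Td, mt-Tk, mt-Tg and mt-Th). mt-Co2 and mt-Co3 encode subunits of cytochrome oxidase, and mt-Atp6 encodes a subunit of ATP synthase. Their neighbour mt-Co1 had the highest level among the 7 mitochondrial mRNAs with a mean CPM of at least 1. The zeros clustered on the map. The annotation of the GRCm38 assembly, the build of the deposited tables, places 7 pseudogenes side by side on chr1:24611535-24616188, on the minus strand, which match the mitochondrial stretch chrM:6390-11042 in the same gene order. This stretch runs from the last part of mt-Co1 to the first part of mt-Nd4. The aligned parts of the 7 transcripts covered 4140 bases with 2 mismatches and no gap, and 5 of the 7 were identical to the mitochondrial gene.

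Of the 11 mitochondrial genes that lie wholly inside the copied stretch, 9 had no read in any library, and of the 24 that lie wholly outside it, 3 had none. mt-Co1 and mt-Nd4 lie partly inside and had reads. The exceptions inside the stretch were the complex I subunit mt-Nd3, with 35 reads over the 9 libraries, and the arginine tRNA mt-Tr, with 29. The authors counted uniquely aligned reads, and a read that fits equally well in 2 places of the genome has no unique alignment. For a gene whose whole sequence is repeated in this way, a listing at 0 is no measure of its transcripts. The 3-read limit of detection, 0.0804 to 0.388 CPM by library, applies to uniquely aligned reads only. The part of repeated sequence in each listing at 0 was not tested, and 3 of the genes at 0 lie outside the stretch. The 7 pseudogenes held 13 reads in all 9 libraries together, 10 of them on Gm29216, the copy of the end of mt-Co1.

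The letters show how close the copies are. The first 80 bases of mt-Co2 (ENSMUSG00000064354, chrM:7013-7696, plus strand) and of its chromosome 1 copy Gm28661 (chr1:24614885-24615565, minus strand) are the same, so that no read from this part could tell them apart. The first 80 bases of mt-Nd3 (ENSMUSG00000064360, chrM:9459-9806) and Gm28438 (chr1:24612775-24613119) differ by the substitution T3C, counted from the first base of the gene, and capitals mark that base. In mt-Co1 (ENSMUSG00000064351, chrM:5328-6872) capitals mark the beginning of the part aligned to Gm29216, within bases 1003 to 1122 of the gene. The sequences, 5′ to 3′, were read from the GENCODE transcripts.
mt-Co2: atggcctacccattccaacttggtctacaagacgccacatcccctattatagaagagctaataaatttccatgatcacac
Gm28661: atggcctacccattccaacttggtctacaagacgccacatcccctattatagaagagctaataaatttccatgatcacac
mt-Nd3: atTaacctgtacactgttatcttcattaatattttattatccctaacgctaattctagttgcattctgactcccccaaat
Gm28438: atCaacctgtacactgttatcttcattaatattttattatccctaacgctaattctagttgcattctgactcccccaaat
mt-Co1: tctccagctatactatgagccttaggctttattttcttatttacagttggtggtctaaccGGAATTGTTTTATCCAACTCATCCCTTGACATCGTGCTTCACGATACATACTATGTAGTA

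Each mitochondrial transcript was also compared in 50-base windows with all annotated transcripts of other chromosomes. All windows (100%) of mt-Co2 occurred elsewhere, as did 99.9% of those of mt-Co3, 99.5% of mt-Atp6, 98.8% of mt-Nd4l and 98.0% of mt-Nd3. mt-Nd4 had 62.2% and mt-Co1 51.1% of its windows elsewhere, the latter also in the chromosome 2 pseudogene Gm13340. mt-Nd2 had 8.2%, mt-Nd5 7.6% and the large rRNA mt-Rnr2 1.0%, whereas mt-Nd1, mt-Nd6, mt-Cytb and the small rRNA mt-Rnr1 had none. mt-Atp8 also had none, although it lies within the copied stretch. The annotated copy of mt-Atp6, Gm10925, covers only the end of mt-Atp8, a part too short for a 50-base window. In windows of 36 bases 4.7% of mt-Atp8 occurred elsewhere. The genome sequence between the pseudogenes was not used here, so the rest of mt-Atp8 and the tRNA genes of the stretch were not compared with chromosome 1. The read length is not given in the sources used here, and the window of 50 bases is a choice.

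**Figure D1:**
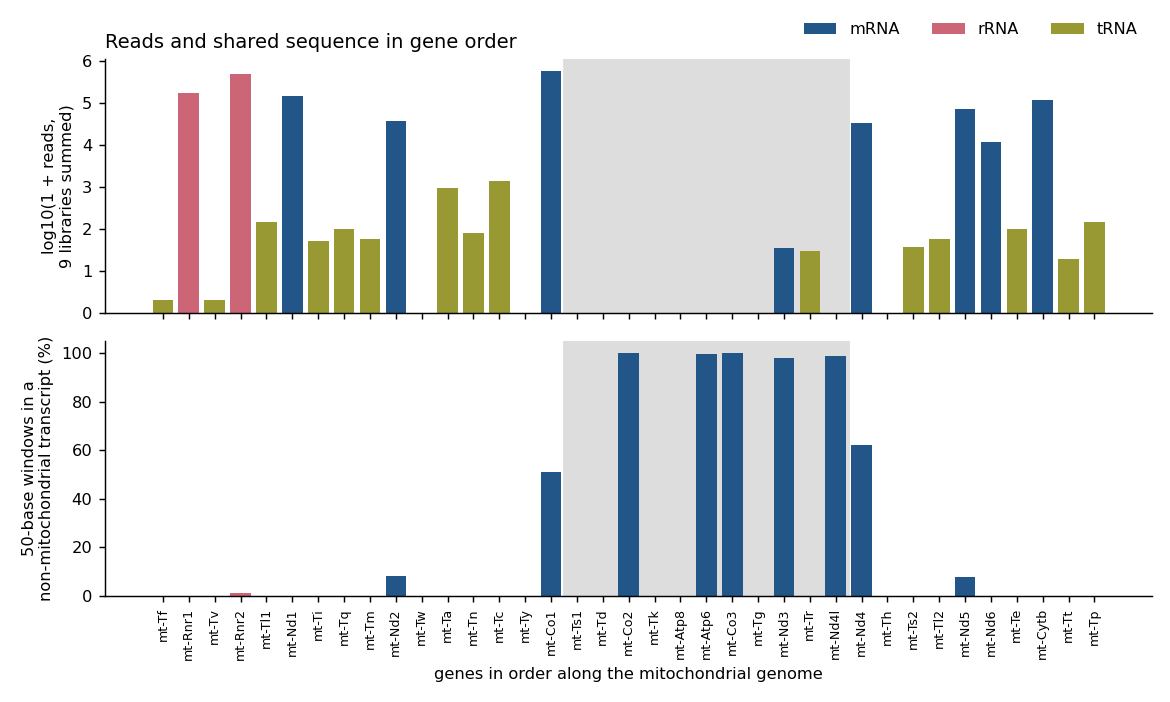
Reads summed over the 9 libraries as log10(1 + reads) (upper panel) and the percentage of each gene's 50-base windows that occur in a transcript of another chromosome (lower panel), for the 37 genes in their order along the mitochondrial genome. The grey band holds the 11 genes wholly inside the stretch copied on chromosome 1, of which 9 have no read, and the genes at its edges, mt-Co1 and mt-Nd4, have reads and partly shared sequence.

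Levels of the measurable mRNAs spanned a wide range. At day 0 mt-Co1, the catalytic core of cytochrome oxidase, had 999 ± 127 RPKM (SD, n = 3), followed by the complex I subunit mt-Nd1 with 286 ± 7.99 RPKM and by mt-Cytb, the cytochrome b of complex III, with 252 ± 6.65 RPKM. The complex I subunits mt-Nd5, mt-Nd6, mt-Nd2 and mt-Nd4 had 113 ± 1.55, 60.9 ± 9.24, 49.4 ± 4.28 and 44.9 ± 2.99 RPKM. In this order the libraries of mt-Nd6 and mt-Nd2 overlapped, as did those of mt-Nd2 and mt-Nd4, and the other neighbours did not. RPKM divides by the whole gene, although reads from shared sequence were not counted. Per kilobase of 50-base windows found in no annotated transcript of another chromosome, the day 0 level of mt-Co1 was 2111 and that of mt-Nd4 123. This moved mt-Nd4 from the lowest rank to the fifth of 7.

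All 7 mRNAs were higher at day 7 than at day 0, in every library of day 7 against every library of day 0. By comparison 16.9% of the 12712 genes tested had every day 7 library above every day 0 library, and 25.4% had every one below. In limma across all genes tested, with adjusted p under 0.05, mt-Co1, mt-Nd1, mt-Nd2, mt-Nd4, mt-Nd5 and mt-Nd6 rose, and mt-Cytb did not pass. Of all genes tested 31.2% passed this test, 12.6% as higher and 18.6% as lower. The rises were moderate, and the ratio of the mean CPM at day 7 to that at day 0 ran from 1.33 for mt-Cytb to 1.92 for mt-Co1, with a median of 1.68. In these bulk samples more mitochondrial RNA per cell and a larger share of cells rich in it cannot be told apart.

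mt-Co1 had 1714, 1588 and 1329 CPM in the 3 day 0 libraries and 3057, 2664 and 3165 CPM in the 3 day 7 libraries. The lowest day 7 library was well above the highest day 0 library. The log2 fold change of CPM was 0.94 (SE 0.18, limma adjusted p = 3.63e-05).

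mt-Nd2 (ENSMUSG00000064345, chrM:3914-4951), a membrane subunit of complex I, had 49.7, 56.3 and 47.9 CPM at day 0 and 115, 78.3 and 99.8 CPM at day 7. Its log2 fold change was 0.91 (SE 0.16, limma adjusted p = 1.25e-05). The day 7 libraries differed from each other more than the day 0 libraries did, without overlap between the stages.

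mt-Nd6 (ENSMUSG00000064368, chrM:13552-14070) is the protein-coding gene on the strand opposite to all the others, and also encodes a complex I subunit. It had 30.4, 36.9 and 27.5 CPM at day 0 and 67.0, 47.9 and 61.1 CPM at day 7, a log2 fold change of 0.88 (SE 0.17, limma adjusted p = 3.83e-05). Its rise was of the same order as that of mt-Co1 and mt-Nd2 on the other strand. Whether reads were counted by strand is not given in the sources used here, so reads of mt-Nd6 and of RNA transcribed across it from the other strand cannot be told apart.

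mt-Nd4 (ENSMUSG00000064363, chrM:10167-11544), another membrane subunit of complex I, had 57.6, 62.5 and 65.7 CPM at day 0 and 104, 89.5 and 118 CPM at day 7. Its log2 fold change was 0.73 (SE 0.16, limma adjusted p = 2.09e-04). mt-Co1, mt-Nd2, mt-Nd6 and mt-Nd4 passed the threshold in all 18 alternative analyses.

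The remaining mRNAs had smaller fold changes. Relative to the mean of the mRNAs, described below, their change did not pass the threshold, which 3 libraries against 3 cannot reach. mt-Nd1 (ENSMUSG00000064341, chrM:2751-3707) had 279, 265 and 278 CPM at day 0 and 399, 319 and 439 CPM at day 7, with a log2 fold change of 0.48 (SE 0.16, limma adjusted p = 0.0152). mt-Nd5 (ENSMUSG00000064367, chrM:11742-13565) had 205.7, 209.5 and 204.0 CPM at day 0 and 299.3, 253.0 and 288.1 CPM at day 7, with a log2 fold change of 0.44 (SE 0.15, limma adjusted p = 0.0234). Both stages were tight and apart, and by the SD between replicates mt-Nd5 ranked 12461st from the highest among 12712 genes. mt-Cytb (ENSMUSG00000064370, chrM:14145-15288) had 291.0, 280.2 and 294.9 CPM at day 0 and 387.2, 295.5 and 473.2 CPM at day 7. One day 7 library of mt-Cytb was almost level with the highest day 0 library, and the log2 fold change of 0.39 (SE 0.16) had a limma adjusted p of 0.0613, with the threshold passed in 7 of 18 alternatives. The calls of mt-Nd1 and mt-Nd5 were lost when single libraries were left out (mt-Nd1 without day 0 replicate 2, day 7 replicate 1 or day 7 replicate 3, and mt-Nd5 without the same libraries or day 0 replicate 1), and mt-Nd5 was also lost with a replicate block.

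Across all genes tested the log2 fold change had a median of -0.11, and relative to this shift the fold changes of the mRNAs were 0.50 (mt-Cytb, which did not pass) to 1.06 (mt-Co1). The direction of all 7 held in all 18 alternatives, which included scalings that brought the median of all genes close to 0. The exact permutation test of a single gene gave p = 0.1 for each of the 7, the smallest value that 3 libraries against 3 allow.

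**Figure D2:**
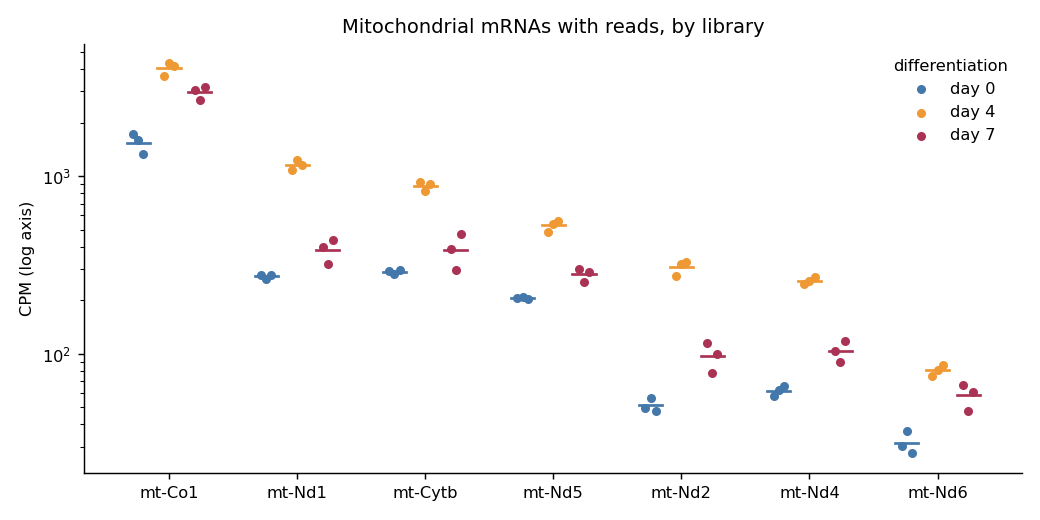
CPM on a log axis of the 7 mitochondrial mRNAs with reads, with a point per library and a bar at the mean of 3 libraries for day 0, day 4 and day 7. In every gene the day 7 points lie above the day 0 points and the day 4 points above both.

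At day 4 the mRNAs were higher than at either of the other stages. All 7 were above day 0 and above day 7 in every library, whereas 8.07% of 12782 genes compared were above both stages in this way. The ratio of the mean CPM at day 4 to that at day 0 ran from 2.56 for mt-Nd5 to 5.99 for mt-Nd2, with a median of 3.06. Only 7.18% of all genes compared were over 2-fold higher at day 4 than at day 0 without overlap, and all 7 mRNAs were among them. The ratio of day 4 to day 7 ran from 1.36 for mt-Co1 to 3.15 for mt-Nd2, with a median of 2.29, and was over 2-fold for mt-Nd1, mt-Nd2, mt-Nd4 and mt-Cytb (2.1% of all genes compared).

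mt-Nd2 stood at 274, 319 and 329 CPM at day 4, mt-Nd1 at 1077, 1231 and 1148 CPM, and mt-Co1 at 3644, 4300 and 4173 CPM. The range within day 4 was narrow in each of them. mt-Nd3, whose sequence is almost wholly shared with chromosome 1, had 10, 6 and 10 reads at day 4, against 2, 0 and 0 at day 0 and 3, 2 and 2 at day 7, and by CPM it was above day 0 in every library and overlapped day 7. In each day 0 library mt-Nd3 was under the 3-read limit of detection, and its lowest day 4 value was 0.161 CPM against a highest day 0 value of 0.143 CPM. The sum of the immediate early genes, 9 genes induced by cell dissociation and stress, was also highest at day 4, with 471 to 593 CPM against 199 to 234 CPM at day 0 and 237 to 333 CPM at day 7. Of the 9, 7 were above day 0 in every library and 6 above day 7, where 21.6% and 25% of all genes compared were. The day 4 libraries were the deepest and were processed into a table of their own. Stage and table cannot be told apart for day 4, and the part of the immediate early response in the difference was not tested.

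As a share of all reads on genes, the mRNAs took 0.246% ± 0.0194 (SD, n = 3) before differentiation, 0.725% ± 0.0454 at day 4 and 0.428% ± 0.0468 at day 7. The shares rest on 17399 to 281644 reads per library, and their 95% Wilson intervals were at most 0.00733 percentage points wide, which covers counting error only. The spread between replicates was thus much larger than the counting error. The share of all 37 genes together had the same order of means, with 0.758% ± 0.372 at day 0, 1.10% ± 0.0950 at day 4 and 0.815% ± 0.326 at day 7, but the libraries of the 3 stages overlapped. The rRNAs had more reads than the mRNAs in day 0 replicates 2 and 3 and in day 7 replicate 2.

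**Figure D3:**
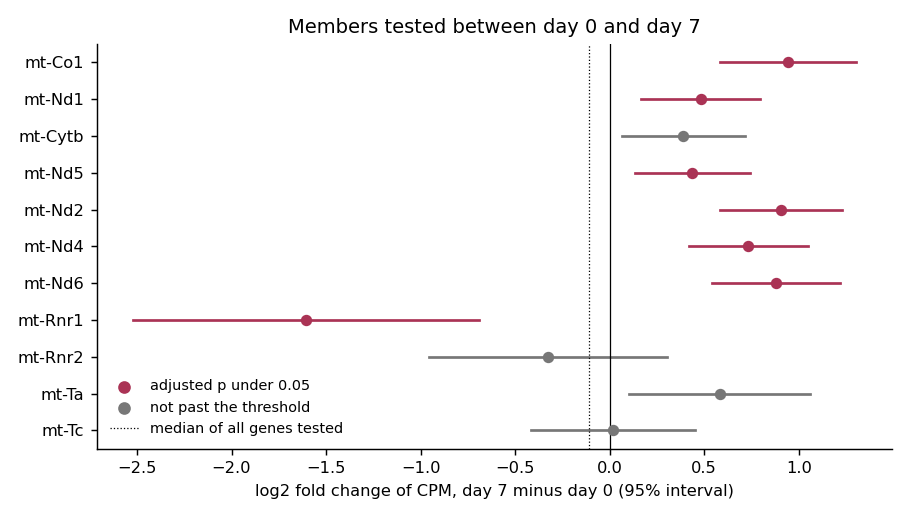
Log2 fold change of CPM, day 7 minus day 0, with 95% intervals from limma for the 11 mitochondrial genes that passed the filter on low values. The 6 red mRNAs lie to the right of 0, and mt-Cytb narrowly misses the threshold. mt-Rnr1, also red, lies to the left of 0, and its interval is the widest of the 11.

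The balance among the mRNAs was described next. Each was expressed relative to the geometric mean of the 7 in the same library, which removes the depth of the library and any common change. Between day 0 and day 7 the relative level of mt-Co1 differed by 0.26 on the log2 scale and that of mt-Nd2 by 0.23, whereas mt-Cytb differed by -0.29, mt-Nd5 by -0.25 and mt-Nd1 by -0.20. In these 5 the stages did not overlap (exact permutation p = 0.1 each, 0.14 after Benjamini-Hochberg adjustment over 7 genes), and mt-Nd6 (0.21 higher) and mt-Nd4 (0.05 higher) overlapped. None passed the threshold, which 3 libraries against 3 cannot reach. Since the 7 values are ratios to their own mean, a higher value of some requires a lower value of others. No share over all genes is given for such ratios here, so whether 5 of 7 is unusual was not assessed.

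The day 4 values are given by direction. Relative to the mean of the 7, mt-Nd2 stood 0.81 higher than at day 0, mt-Nd1 0.30 higher and mt-Nd4 0.28 higher, while mt-Nd5 was lower by -0.42, mt-Nd6 by -0.41 and mt-Co1 by -0.38, all without overlap and without a test. mt-Cytb overlapped. mt-Co1 was therefore above its day 0 balance at day 7 and below it at day 4. In RPKM, mt-Co1 made up 55.2% ± 3.23 of the summed level of the 7 mRNAs at day 0, 47.3% ± 1.37 at day 4 and 62.1% ± 1.82 at day 7. mt-Nd1, the next in level, made up 15.9% ± 1.32, 21.8% ± 0.663 and 12.98% ± 0.587. mt-Co1 and mt-Nd4 are the genes with partly shared sequence, and without both, 3 of the remaining 5 did not overlap between day 0 and day 7. No share over all genes is given for the ratios of this paragraph, so whether so many without overlap is unusual was not assessed.

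**Figure D4:**
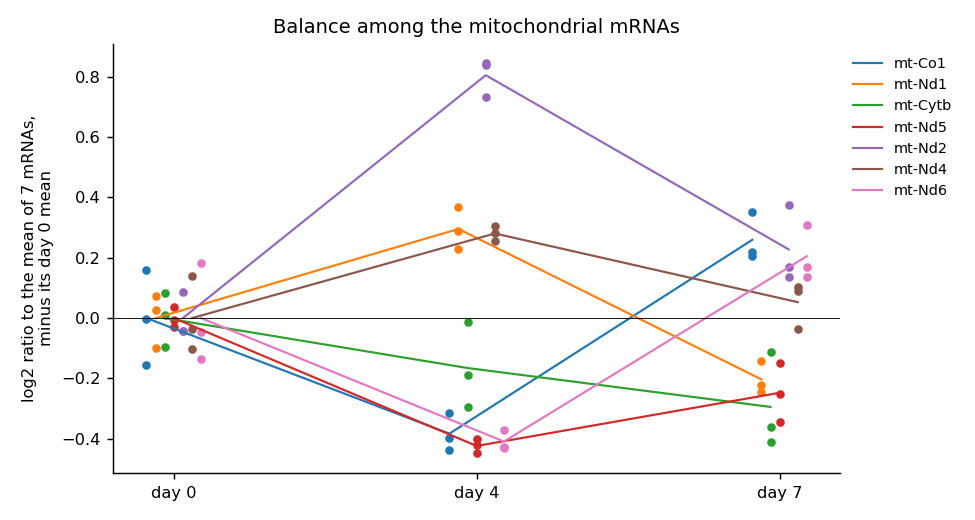
Log2 ratio of each of the 7 mRNAs to their geometric mean in the same library, minus the gene's day 0 mean, with points for libraries and lines through the stage means. mt-Nd2 peaks at day 4, mt-Co1 and mt-Nd6 dip at day 4 and lie above their day 0 mean at day 7, and mt-Nd5 and mt-Cytb are below it at both later stages.

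The 2 rRNAs behaved unlike the mRNAs. mt-Rnr1 (ENSMUSG00000064337, chrM:70-1024), the small rRNA, had 895, 908 and 3192 CPM at day 0, 1274, 1011 and 486 CPM at day 4 and 341, 2497 and 107 CPM at day 7. mt-Rnr2 (ENSMUSG00000064339, chrM:1094-2675), the large rRNA, had 1716, 2186 and 6409 CPM at day 0, 3506, 2990 and 1921 CPM at day 4 and 1758, 5629 and 1230 CPM at day 7. Day 0 replicate 3 and day 7 replicate 2 were high in both, and the 3 stages overlapped in both. The highest library of day 7 exceeded the lowest 23.2-fold for mt-Rnr1 and 4.58-fold for mt-Rnr2, whereas for the 7 mRNAs the same ratio within a stage was 1.03 to 1.601. By the SD between replicates mt-Rnr1 ranked 18th and mt-Rnr2 37th of 12712 genes.

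In limma mt-Rnr1 fell at day 7, with a log2 fold change of -1.61 (SE 0.45, adjusted p = 0.00492). The stages overlapped and the exact permutation test gave p = 0.5. The SE in this test is drawn largely from other genes of similar level, and with variances estimated robustly, which lets very variable genes keep their own spread, it was 1.46 (limma adjusted p = 0.492). The call depended on the variance estimate, the scaling and single libraries: mt-Rnr1 passed in 8 of 18 alternatives, and without day 0 replicate 3 or day 7 replicate 1 it did not pass. Its log2 fold change ran from -2.84 without day 7 replicate 2 to -0.57 without day 7 replicate 3. mt-Rnr2 had a log2 fold change of -0.33 (SE 0.31, limma adjusted p = 0.462), which changed sign to 0.25 without day 0 replicate 3 and to 0.12 without day 7 replicate 3, whereas it passed the threshold as lower without day 0 replicate 1 or day 7 replicate 2.

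The rRNAs moved with a nuclear gene. Lars2 encodes the mitochondrial leucyl-tRNA synthetase, and its reads ranged from 0.0319% to 3.84% of all reads on genes. The order of the 9 libraries by Lars2 was the same as their order by the summed share of the 2 rRNAs, from day 0 replicate 3 and day 7 replicate 2 as the highest to day 7 replicate 3 as the lowest. The genes annotated as nuclear rRNA gave the same order but for ranks 4 to 6. The order by mRNA share was different, with day 0 replicate 3 as the lowest. Within day 7 the highest Lars2 library exceeded the lowest 69.6-fold, and Lars2 had the second largest spread between replicates of all genes tested. The depletion kit was the same, but whether the libraries were depleted together is not stated here. Within a library all shares rest on the same total, and the part of residual rRNA in the order was not tested. The number of mt-Rnr2 reads per mt-Rnr1 read ran from 1.92 in day 0 replicate 1 to 11.5 in day 7 replicate 3, so the 2 rRNAs were not present in a fixed ratio.

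**Figure D5:**
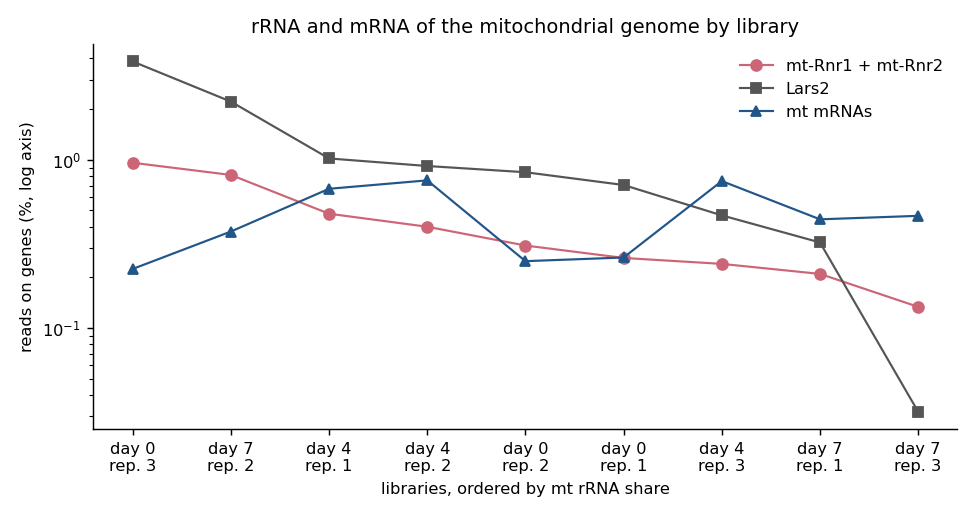
Percentage of reads on genes, on a log axis, for the 2 mitochondrial rRNAs together, the nuclear gene Lars2 and the mitochondrial mRNAs, in the 9 libraries ordered by the rRNA share. Lars2 follows the rRNAs down the order while the mRNAs group by stage.

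The tRNAs had few reads. Together the 22 took 0.00129% of reads at day 0, 0.00195% at day 4 and 0.00156% at day 7. Beside the 7 without a read, 2 had 1 read in all, and 2 had a mean CPM of at least 1 in the day 0 and day 7 libraries, mt-Ta for alanine and mt-Tc for cysteine. Both are encoded on the minus strand, in the cluster between mt-Nd2 and mt-Co1. As for mt-Nd6, reads of these tRNAs and of RNA transcribed across them from the other strand cannot be told apart. Their sequences, taken from the GENCODE transcripts with the anticodon in capitals, show which tRNAs these are and how short the counted target is.
mt-Ta: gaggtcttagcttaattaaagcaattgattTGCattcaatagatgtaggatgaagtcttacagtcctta
mt-Tc: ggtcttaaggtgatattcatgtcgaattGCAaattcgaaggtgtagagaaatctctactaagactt

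mt-Ta (ENSMUSG00000064347, chrM:5018-5086) had 45, 44 and 14 reads at day 0 and 59, 48 and 70 reads at day 7, with a log2 fold change of CPM of 0.58 (SE 0.24, limma adjusted p = 0.0567), and it passed the threshold as higher in 8 of 18 alternatives. mt-Tc (ENSMUSG00000064349, chrM:5192-5257) had 150, 105 and 41 reads at day 0 and 91, 91 and 143 at day 7, with a log2 fold change of 0.02 (SE 0.22, limma adjusted p = 0.967, 95% interval -0.42 to 0.45). The stages of mt-Tc overlapped. At day 4, mt-Ta had 122, 303 and 255 reads and mt-Tc 158, 361 and 249, and only mt-Ta was above day 0 in every library by CPM. Of the 22 tRNAs, 8 were above day 0 at day 4 in every library by CPM, and 4 were above day 7. The shares of all genes compared were 21.6% and 25%, but those genes had a mean CPM of at least 1. Most of the tRNAs lie under that filter, so the shares do not compare like with like. Most of the 8 tRNAs had under 10 reads in each day 0 library, and the day 4 libraries were the deeper ones, so at day 0 many of these tRNAs were near the limit of detection. mt-Tl1, the leucine tRNA next to mt-Rnr2, was an example with 32, 45 and 63 reads at day 4 against 0, 2 and 1 at day 0 and 2, 1 and 2 at day 7.

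Nuclear genes that make and process mitochondrial RNA were then compared with the mRNAs. Of 87 tested genes for transcription, RNA processing and decay, tRNA modification and charging, and DNA replication, 3 rose and 4 fell at day 7 in limma, with a median log2 fold change of -0.06 against -0.11 for all genes tested. Over all genes tested 31.2% passed, 12.6% as higher and 18.6% as lower. None of the 10 transcription genes passed the threshold. The level of Polrmt, the RNA polymerase, was 7.42 ± 0.257 RPKM at day 0 and 5.89 ± 0.759 at day 7 (log2 fold change -0.34, SE 0.17, limma adjusted p = 0.122). Tfam, which packages the DNA and binds its promoters, had a log2 fold change of -0.22 (SE 0.17, adjusted p = 0.346), Tfb2m, the promoter-melting factor, -0.57 (SE 0.23, adjusted p = 0.0539) and the elongation factor Tefm 0.26 (SE 0.20, adjusted p = 0.349).

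Among 29 genes for RNA processing and decay, Lrpprc, an RNA-binding protein that stabilizes mitochondrial mRNAs, was the one that passed, and it fell (from 12.7 ± 2.37 RPKM before differentiation to 9.01 ± 0.324 at day 4 and 7.97 ± 0.441 at day 7, log2 fold change -0.65, SE 0.16, limma adjusted p = 0.00125). Its partner Slirp had a log2 fold change of 0.12 (adjusted p = 0.643), and the degradosome subunits Pnpt1 and Supv3l1 had -0.01 and -0.03 (adjusted p = 0.970 and 0.906). Of the 29 genes for tRNA modification and charging, 2 rose and 2 fell, the largest rise being Nars2, the asparaginyl-tRNA synthetase (0.60, adjusted p = 0.0158), and the largest fall Lars2 (-2.22, SE 0.60, adjusted p = 0.00317), whose stages overlapped and whose call held in 9 of 18 alternatives. With robust variances its adjusted p was 0.475, and its log2 fold change ran from -3.70 without day 7 replicate 2 to -0.64 without day 7 replicate 3, where it no longer passed, as it did not without day 0 replicate 3 (-1.45). Of 19 genes for DNA replication and copy number, Slc25a33, a carrier for pyrimidine nucleotides, rose (0.60, adjusted p = 0.0174) and Tk2, the mitochondrial thymidine kinase, fell (-0.61, adjusted p = 0.00999). The DNA polymerase Polg (-0.30), the helicase Twnk (0.25) and the single-strand binding protein Ssbp1 (0.03) did not pass. These counts depended on the scaling and on single libraries. Under median-of-ratios scaling 21 of the 87 passed, 16 of them higher, where 5456 of all 12712 genes tested passed, 2827 of them higher. Without day 0 replicate 3 it was 27, of which 24 were lower, where 6330 of 12763 genes passed, 4699 of them lower. Without day 7 replicate 2 or without day 7 replicate 3 it was 3, where 3009 of 12730 and 2953 of 12703 genes passed.

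Nuclear genes of the respiratory complexes, whose products assemble with those of the mitochondrial genome, were counted in the same way. Of 77 tested, 16 rose and 2 fell in limma, where 12.6% of all genes tested rose and 18.6% fell, and the median log2 fold change of the 77 was 0.20. The difference from other genes was not tested. Complex I had 3 rises among 36 genes, led by Ndufv3 (22.2 ± 4.17 RPKM at day 0 and 34.8 ± 2.44 at day 7), and complex III had 2 among 9, led by Uqcrh (63.0 ± 11.1 and 105 ± 2.82 RPKM). Complex IV had 6 rises and 2 falls among 15 genes, with Cox4i2, an alternative isoform of subunit 4, as the largest rise (0.421 ± 0.0909 and 70.1 ± 14.6 RPKM) and Cox6a2, the muscle isoform of subunit 6a, as the largest fall (11.5 ± 0.573 and 5.46 ± 1.74 RPKM). Complex V had 5 rises among 17, led by Atp5e (31.1 ± 9.20 and 61.3 ± 7.71 RPKM). Under median-of-ratios scaling 47 of the 77 rose and 2 fell, where 2827 of all 12712 genes tested rose and 2629 fell. Without day 7 replicate 1 or without day 7 replicate 3 the passing genes numbered 12 and 11, where 2882 of 12690 and 2953 of 12703 genes passed.

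At day 4 most nuclear subunit genes were not above both other stages. Of the 79 nuclear subunit genes in the tables, 20 were above day 0 at day 4 in every library and 15 below, where 21.6% and 21.9% of all genes compared were. Against day 7, 2 were above and 39 below, where 25% and 13.6% of all genes compared were. All 7 mitochondrial mRNAs were above both. The difference between the nuclear and the mitochondrial genes at day 4 was not tested.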

How the data were processed

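RNA-seq of 9 calvarial cell libraries, 3 each at day 0, 4 and 7, was used. The authors aligned reads to GRCm38 with STAR 2.0.4b, kept reads with a unique and unambiguous alignment for the featureCounts tally, and deposited each gene's CPM and RPKM. Strandedness and read length are not given in the sources used here. In every library 100% of CPM values were whole multiples (tolerance 0.02) of 1 read, so reads were recovered. Groups follow the sample records. Replicates of a stage differed by more than counting error (chi-square 11.7 to 203 per degree of freedom), so none was treated as a duplicate.

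The test of day 7 against day 0 was limma (version 3.58.1, R 4.3.3) with variances following the mean, run on log2(CPM + 0.5). It took in the 12712 genes whose CPM averaged 1 or more across these 6 libraries, and p-values were adjusted over all of them (Benjamini-Hochberg, threshold 0.05). Fold changes on this scale understate those of low genes. The prior had 42.9 degrees of freedom against 4 residual ones. Count models on recovered reads used edgeR 4.0.16 and DESeq2 1.42.0 as alternatives. The method was tested on simulated data. Shared sequence was found with GENCODE M21 transcripts of GRCm38 in windows of 36, 50 and 100 bases. The balance of mRNAs was planned over 13 and computed over the 7 that passed this filter.

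All mt- genes are named, tRNAs under that mean by counts. Of the nuclear lists, 11 genes chosen for their role and each list's largest significant rise and fall are named. mt-Tl1, mt-Tr, Gm13340 and the marker lists' examples were chosen after values were seen. Members and lists were chosen with earlier results of these data known.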

Additional observations from a re-analysis of the deposited data

How the results depend on the processing

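The direction of the 7 mRNAs held in all 18 alternatives, and 6 passed the threshold at day 7 (5 with a replicate block, 4 to 7 when a replicate was left out). The calls of mt-Rnr1 and of the nuclear lists depended most on the processing, and the cause was not tested. Among the rRNAs and tRNAs 1 gene passed (mt-Rnr1, lower). With all genes with any reads it was 3 (mt-Ti, mt-Tr and mt-Tl2, higher), with a total without mt-Rnr1, mt-Rnr2, Lars2 and Gm26917 it was 0, and leaving out replicates gave 0 to 3. mt-Ti had 0, 1 and 1 reads at day 0 and 4, 3 and 6 at day 7. mt-Tl2 had 0, 4 and 0 against 7, 6 and 9. mt-Tr had 0, 0 and 0 against 2, 1 and 3, so it entered that filter through day 7 alone. These reads lie near the 3-read limit of detection, and no rise is concluded from these calls. With median-of-ratios scaling, robust variances, RPKM, edgeR, DESeq2 and voom with quality weights, the gene that passed was mt-Ta, higher. mt-Rnr2 ran from -0.97 to 0.25 with replicates left out and reversed without day 0 replicate 3 (0.25) and without day 7 replicate 3 (0.12), and mt-Tc (-0.26 to 0.22 with replicates left out) reversed with the total without those genes (-0.0041), without day 0 replicate 3 (-0.26), without day 7 replicate 2 (-0.02) and without day 7 replicate 3 (-0.07).

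Of all genes 3971 passed (1602 higher, 2369 lower), 6120 with voom with quality weights (3148 higher, 2972 lower), 5456 with median-of-ratios scaling (2827 higher, 2629 lower), 3413 with a replicate block and 2882 to 6330 with replicates left out. It was 5468 with edgeR, 4910 with DESeq2 and 4064 of 23787 when all genes with any reads were tested. The nuclear genes for mitochondrial RNA gave 7, with any reads 4, median-of-ratios scaling 21, edgeR 22, DESeq2 16, voom 28, the replicate block 6 and replicates left out 3 to 27. The nuclear subunits gave 18, with median-of-ratios scaling 49, edgeR 48, DESeq2 46, voom 53, the replicate block 18 and replicates left out 11 to 25. The balance of the mRNAs gave 5 genes without overlap, 3 without mt-Co1 and mt-Nd4, 4 by share of RPKM and 5 to 6 with replicates left out. No share over all genes is given beside these counts of the balance. The share of all mitochondrial reads differed by 0.0571 percentage points, and by -0.130 to 0.271 with replicates left out. Same-numbered day 0 and day 7 libraries correlated at -0.44 to -0.016 in their deviations and others at -0.26 to 0.35, so the numbers were not taken to pair day 0 with day 7, and the replicate block shows only a shared number there. Same-numbered day 4 and day 7 libraries correlated at 0.102 to 0.325 and others at -0.331 to 0.0201, but day 4 entered no test. The robust variances, the total without the 4 genes and the unshared windows were chosen after seeing the data.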
